A study of Mus musculus with 8 samples.

Results

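The aryl hydrocarbon receptor (AHR) is a transcription factor that is switched on by small molecules, among them combustion products, plant compounds and derivatives of tryptophan. Without a ligand it waits in the cytoplasm in a complex with HSP90 and its cochaperones. With a ligand it enters the nucleus, pairs with ARNT and binds xenobiotic response elements, which turns on the cytochromes *Cyp1a1* and *Cyp1b1* together with the feedback inhibitors *Ahrr* and *Tiparp*. In blood, AHR is known for its roles in dendritic cells, innate lymphoid cells and some T cells and for its influence on stem and progenitor cells.

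The genes of this circuit described here (6 of the 54532 genes counted) are the receptor *Ahr*, its partner *Arnt*, and *Ahrr*, *Cyp1a1*, *Cyp1b1* and *Tiparp*. They were selected on a list of names drawn up after the measured differences between the same fractions were known. Their levels are therefore given as a description, with no test. RNA-Seq libraries were made from bone marrow LSK cells, the Lin- c-Kit+ Sca-1+ compartment of stem and progenitor cells, that were sorted into EpCAM+ and EpCAM- fractions (4 mice per group, 4 libraries per fraction). All mice were C57BL/6 with both *Zeb1* alleles floxed (Zeb1 fl/fl) and Mx1-Cre, and had received pIpC, a double-stranded RNA analogue that induces interferon and thereby Cre, with collection on day 14 after the final dose. Both fractions were thus Zeb1-/- and exposed to pIpC, no library from undeleted mice is part of the comparison, and Mx1-Cre also recombines outside blood cells. The age of these mice is not given in the sources used here. The labels do not say whether an EpCAM+ and an EpCAM- library with the same number came from 1 mouse.

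The libraries held 15225714 to 17073546 counted reads in the EpCAM+ fraction and 14114491 to 15929923 in the EpCAM- fraction. A floor of 3 counts corresponded to 0.168 to 0.222 counts per 1000000 reads (CPM, on library sizes scaled by TMM, which allows for differences in RNA composition). *Epcam* itself stood at 161 to 234 CPM in EpCAM+ and 1.25 to 8.99 CPM in EpCAM- libraries. *Zeb1* reads were present in both fractions (14.8 to 23.7 against 9.49 to 14.0 CPM), and with no undeleted library these counts do not check the deletion. Markers of the LSK gate had a summed level of 2156 to 2311 against 1318 to 2101 CPM, with 4 of the 6 higher in EpCAM+ cells. *Ly6a*, which encodes Sca-1, stood at 116 to 351 CPM in EpCAM+ and 15.7 to 71.7 CPM in EpCAM- libraries, and 8 of 9 stem cell markers were higher in EpCAM+ cells. The EpCAM- libraries held more neutrophil granule markers (9893 to 15725 against 759 to 1316 CPM), although only 2 of the 6 genes (5 tested), *Mpo* and *Elane*, were lower in EpCAM+ cells by the test. EpCAM+ replicate 1 stood apart in plasma cell markers (3958 CPM, against 384 to 668 in replicates 2 to 4), a sum that was largely *Jchain* (3525 CPM). EpCAM+ replicates 1 and 4 stood apart in dendritic cell markers (210 and 189 CPM, against 17.1 and 52.4 in replicates 2 and 3). The *Ahr* fold change, the counts of pathway genes and the pathway genes whose value or call moved most are also given without replicates 1 and 4. Of all 13560 genes tested with edgeR, 42.6% differed between the fractions at an adjusted p under 0.05, 21.8% being higher and 20.8% lower in EpCAM+ cells.

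*Ahr*, which encodes the receptor, had a higher level in every EpCAM+ library than in any EpCAM- library. The gene lies at chr12:35497974-35535038 on the minus strand (GRCm38, ENSMUSG00000019256). Its counts were 164, 98, 145 and 170 in EpCAM+ replicates 1 to 4 and 58, 43, 56 and 41 in EpCAM- replicates 1 to 4. On the CPM scale this was 10.7, 5.56, 8.10 and 11.0 against 3.62, 3.18, 3.82 and 3.02. Replicates 1 and 4 were the high libraries of the EpCAM+ fraction, replicate 2 was the low one, and the EpCAM- libraries lay close together. The means were 8.85 ± 2.56 CPM and 3.41 ± 0.375 CPM (SD, n = 4 each), a fitted log2 fold change of 1.37 (SE 0.23) or 2.58-fold.

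The EpCAM+ libraries also differed among themselves in *Ahr*. The SD among EpCAM+ libraries was 3.49 times the SD that counting alone gives, whereas in EpCAM- libraries the ratio was 0.770. Between libraries of the same number the ratio of EpCAM+ to EpCAM- CPM was 2.96, 1.75, 2.12 and 3.66. In the EpCAM+ libraries, *Ahr* was highest where markers of dendritic cells and of natural killer (NK) cells and innate lymphoid cells (ILC) were highest. Markers of other kinds, given below, were highest there too. The dendritic list had a summed level of 17.1 to 210 CPM in EpCAM+ and 7.10 to 18.5 CPM in EpCAM- libraries, with 4 of its 7 genes (5 tested) higher in EpCAM+ cells and none at 0 throughout a fraction. Its EpCAM+ sum was largely *Xcr1* (mean 81.3 CPM). Lower means in EpCAM+ than in EpCAM- cells were seen for *Zbtb46* (8.54 against 10.4 CPM, not called) and *Cd209a* (0.0162 against 0.392 CPM, not tested). The NK and ILC list ran from 2.32 to 28.5 CPM against 0.962 to 2.18 CPM. Only 1 of its 5 genes passed the filter, and that gene (*Klrk1*) was higher in EpCAM+ cells. *Klrk1* alone ran from 1.13 to 24.3 CPM in EpCAM+ libraries, and no other gene of the list averaged over 0.850 CPM there. The sum is thus largely that of 1 gene. *Klrb1c* was at a like level in both fractions (means of 0.539 and 0.501 CPM). *Ncr1*, the NK receptor NKp46, was at 0 counts in all EpCAM- libraries. In EpCAM+ replicates 1 to 4 the dendritic sum was 210, 17.1, 52.4 and 189 CPM and the NK and ILC sum was 17.5, 2.32, 5.53 and 28.5 CPM. The order of the 4 libraries by the NK and ILC sum was that of *Ahr*. Monocyte and macrophage markers (315, 76.3, 106 and 142 CPM) and LSK gate markers (2311, 2156, 2213 and 2241 CPM) ranked the libraries as the dendritic sum did. Epithelial markers (254, 219, 203 and 253 CPM) and B cell markers (124, 79.6, 75.6 and 86.8 CPM) were also highest in replicates 1 and 4. Neutrophil, erythroid and megakaryocyte sums were instead highest in replicates 3 and 4. Being highest in replicates 1 and 4 is thus not particular to dendritic, NK or ILC markers. With EpCAM+ replicates 2 and 3 alone the *Ahr* log2 fold change was 0.99, against 1.37 with all 4. The part of these cells in the *Ahr* level was not tested. In bulk RNA, fewer cells of a kind and less RNA per cell cannot be told apart.

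**Figure D1:**
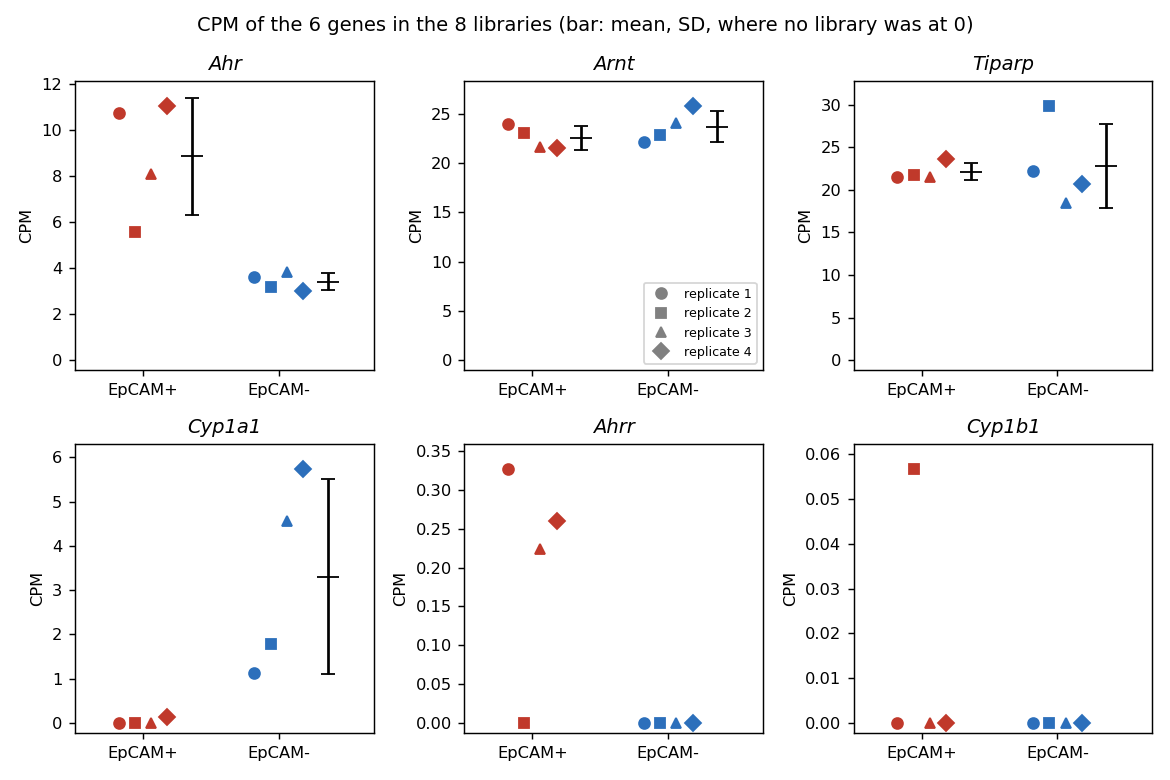
CPM on TMM-scaled library sizes of the 6 genes in each library, with the 4 EpCAM+ libraries in red, the 4 EpCAM- libraries in blue, one marker shape per replicate number, and the mean with SD where no library was at 0. *Ahr* lies between 5.56 and 11.0 CPM in EpCAM+ and between 3.02 and 3.82 CPM in EpCAM- libraries, *Cyp1a1* is near 0 in EpCAM+ libraries, and *Arnt* and *Tiparp* overlap.

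*Arnt*, the partner that AHR needs to bind DNA and that also serves the hypoxia factors, was at a like level in both fractions. It lies at chr3:95434388-95497240 on the plus strand (ENSMUSG00000015522). Its level was 24.0, 23.0, 21.6 and 21.5 CPM in EpCAM+ replicates 1 to 4 and 22.1, 22.9, 24.0 and 25.7 CPM in EpCAM- replicates 1 to 4. The fractions overlapped, with means of 22.5 ± 1.18 and 23.7 ± 1.59 CPM. The fitted log2 fold change was -0.07 (SE 0.09), and its sign turned with library-total or upper-quartile scaling. Within each fraction the spread of *Arnt* was 1.01 and 1.24 times that of counting alone in EpCAM+ and EpCAM- cells.

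In contrast to the receptor, *Cyp1a1*, the cytochrome that is the classical readout of AHR activity and that breaks down many AHR ligands, was counted almost solely in EpCAM- cells. It lies at chr9:57687928-57703824 on the plus strand (ENSMUSG00000032315). The counts were 0, 0, 0 and 2 in EpCAM+ replicates 1 to 4 and 18, 24, 67 and 78 in EpCAM- replicates 1 to 4. The EpCAM- libraries thus held 1.12, 1.78, 4.57 and 5.74 CPM (mean 3.30 ± 2.21 CPM, SD, n = 4). The fractions did not overlap. The summed counts of 187 and 2 gave a ratio of 107 between EpCAM- and EpCAM+ CPM, with an exact 95% counting interval of 29.3 to 892. Reads without molecular identifiers are not independent molecules, and this interval covers counting error only. Without EpCAM+ replicate 4, which held both EpCAM+ reads, *Cyp1a1* was at least 18.6-fold lower in EpCAM+ cells against a floor of 3 counts per library.

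Among EpCAM- libraries *Cyp1a1* was uneven. Replicate 4 held 5.11 times the CPM of replicate 1, and the SD was 4.61 times that of counting alone. The 2 libraries with the higher *Cyp1a1*, replicates 3 and 4, were also those with the higher erythroid marker sums. That sum was 302, 273, 559 and 662 CPM in EpCAM- replicates 1 to 4, against 33.3 to 74.5 CPM in EpCAM+ libraries. Mast cell and basophil markers (231, 317, 479 and 336 CPM) were likewise highest in replicates 3 and 4, as were megakaryocyte markers (182, 80.7, 236 and 273 CPM), whereas the sum of the LSK gate was lowest there (1585 and 1318 CPM). The largest part of the erythroid sum in EpCAM- cells was *Klf1* (mean 298 CPM, 178 to 442 CPM over libraries). Of the 6 erythroid markers 5 were tested, and none was at 0 throughout a fraction. In EpCAM+ cells 4 were lower and 1, the globin gene *Hbb-bt*, was higher (means of 10.2 against 3.98 CPM). The stromal and endothelial list was near 0 in both fractions (0.327 to 0.727 against 0.148 to 4.19 CPM), with *Col1a1* at 0 in all libraries, and its 4.19 CPM belonged to EpCAM- replicate 4. The part of these cells in the *Cyp1a1* level was not tested.

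**Figure D2:**
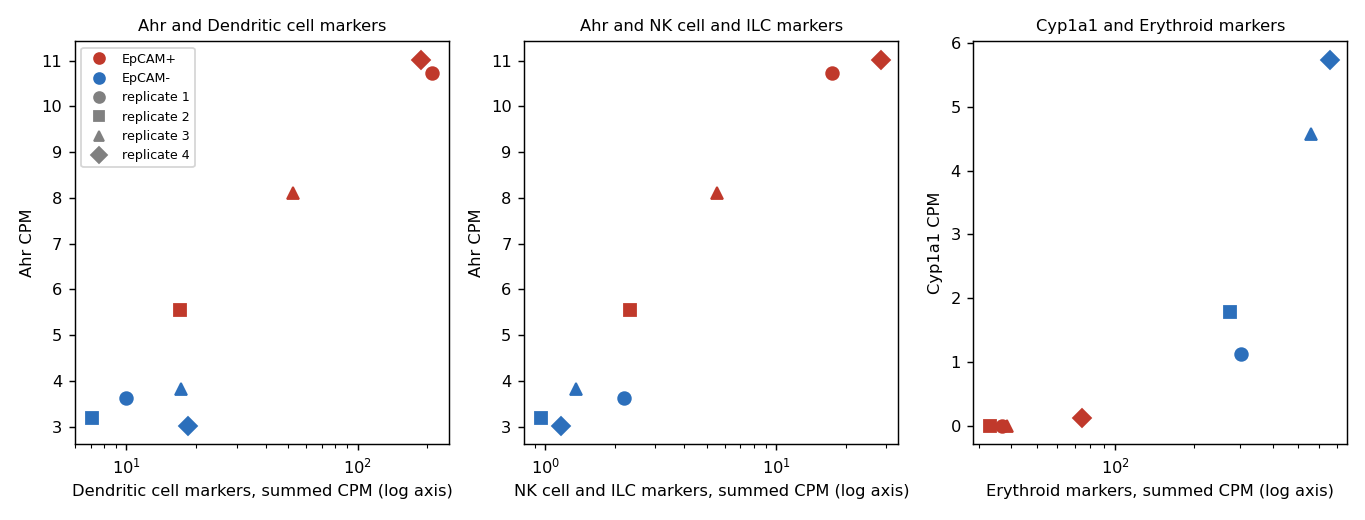
Level of *Ahr* (left and middle) and *Cyp1a1* (right) in CPM against the summed CPM of a marker list on a log axis, 1 point per library, with EpCAM+ in red, EpCAM- in blue and marker shapes for replicate numbers. The lists were picked after their values were seen, and some other lists were highest in the same libraries. The dendritic and the NK and ILC sums are largely *Xcr1* and *Klrk1*, and *Klf1* is the largest part of the erythroid sum in EpCAM- cells. EpCAM+ replicates 1 and 4 are highest both in *Ahr* (10.7 and 11.0 CPM) and in dendritic cell markers (210 and 189 CPM), and EpCAM- replicates 3 and 4 are highest both in *Cyp1a1* and in erythroid markers (559 and 662 CPM).

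*Tiparp*, a target of AHR whose product ADP-ribosylates the receptor and restrains it, overlapped between the fractions and had the highest mean level per length of the members. It lies at chr3:65528410-65555518 on the plus strand (ENSMUSG00000034640). Its level was 21.6, 21.8, 21.6 and 23.7 CPM in EpCAM+ replicates 1 to 4 and 22.3, 29.8, 18.4 and 20.7 CPM in EpCAM- replicates 1 to 4. EpCAM- replicate 2 was the high library. The means were 22.1 ± 1.02 and 22.8 ± 4.93 CPM, and the fitted log2 fold change of -0.04 (SE 0.14) turned to 0.10 without EpCAM- replicate 2 and to 0.04 with library totals or upper-quartile scaling. *Tiparp* shares 223 exon bases with the opposite-strand gene *4931440P22Rik* (23 to 70 counts), and *Ahr* shares 127 with the opposite-strand gene *Gm48236* (0 to 12 counts). The strand setting of the counting is not given in the sources used here. Reads from the shared bases may thus have been counted for either gene or for neither.

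The remaining AHR targets were scarcely detected. *Ahrr*, the repressor that competes with AHR for ARNT (chr13:74211118-74292331, minus strand, ENSMUSG00000021575), had 5, 0, 4 and 4 counts in EpCAM+ replicates 1 to 4 and 0 counts in all 4 EpCAM- libraries. It was thus seen in 3 EpCAM+ libraries at 0.224 to 0.327 CPM, close to the floor of 3 counts, and no fold is given. *Cyp1b1*, an AHR-driven cytochrome of the same family as *Cyp1a1* (chr17:79706953-79715041, minus strand, ENSMUSG00000024087), had 1 count in EpCAM+ replicate 2 and 0 in the other 7 libraries. At this depth a difference in *Cyp1b1* was not detectable.

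Only 4 of the 6 genes therefore passed the filter on low counts, and *Cyp1a1* passed through its EpCAM- counts alone, so that it had to differ. Among these 4, *Ahr* lay wholly above and *Cyp1a1* wholly below between the fractions. Of all 13560 genes tested, 40.1% did not overlap between the fractions, 20.1% lying higher and 20% lower in EpCAM+ cells.

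**Figure D3:**
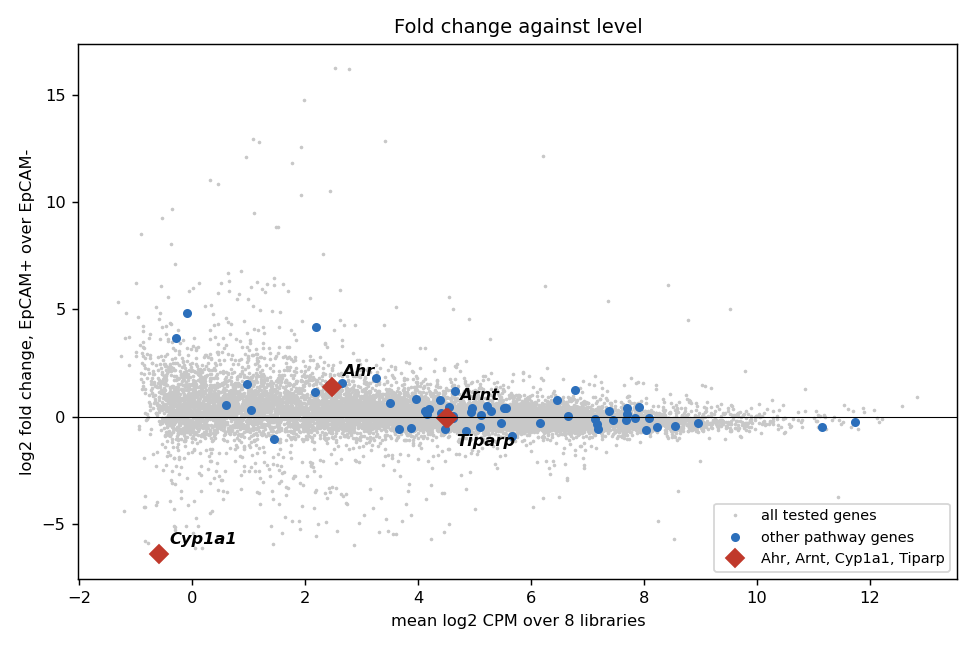
Fitted log2 fold change (EpCAM+ over EpCAM-) against mean log2 CPM over the 8 libraries for all 13560 tested genes (grey), the 57 tested genes of the other AHR lists (blue) and the 4 members that passed the filter (red). *Ahr* lies above 0 at 1.37, *Arnt* and *Tiparp* lie on the line of no change at about the same level, and *Cyp1a1* lies at the lower edge, where the fitted value of -6.43 rests on 2 EpCAM+ reads and is no bound.

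Levels can be compared between genes only per length. As CPM per kilobase of the length given in the table, the order in EpCAM+ cells was *Tiparp* (5.08 ± 0.234), *Arnt* (2.82 ± 0.148), *Ahr* (1.44 ± 0.415), *Ahrr* (0.0214 ± 0.0150), *Cyp1a1* (0.0116) and *Cyp1b1* (0.00276). The first 3 did not overlap over libraries, and the last 3 could not be ordered beyond their spread. In EpCAM- cells *Tiparp* (5.24 ± 1.13) again stood above *Arnt* (2.96 ± 0.198), followed by *Cyp1a1* (1.18 ± 0.792) and *Ahr* (0.553 ± 0.0608). The ranges of *Cyp1a1* (0.403 to 2.06) and *Ahr* (0.489 to 0.620) overlapped there. By the deposited FPKM values, *Ahr* (1.32) stood above *Cyp1a1* (1.19) in EpCAM- cells, so this pair has no settled order. By FPKM the ranges of *Tiparp* (9.57 to 15.3) and *Arnt* (9.35 to 10.4) also overlapped in EpCAM- cells.

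The windows around the RefSeq transcription starts (GRCm38.p6, 250 bases before to 50 after) were searched for GCGTG, the core of the xenobiotic response element, on both strands. Windows matched 5 of the 6 genes, all but *Ahr*. All 5 held the core, with 7 matches in total, and 32.4% of the 32851 windows in the RefSeq table held it too. *Ahrr* had 3 matches, with first bases 107, 82 and 27 bases before the start, and also held the only match among the 5 to the longer form TNGCGTG, which occurred in 5.07% of all windows. *Cyp1a1* and *Arnt* had 1 match each, 54 and 29 bases before the start. *Cyp1b1* and *Tiparp* had 1 match each on the opposite strand, 76 and 170 bases before the start. A match is a stretch of letters, not evidence of binding. Sequence outside these windows was not searched. The stretches below are those of the 4 targets, which lay wholly apart (*Cyp1a1*), overlapped (*Tiparp*) or were near the floor (*Ahrr*, *Cyp1b1*). They are written 5′ to 3′ on the gene's own strand with the core, or its complement CACGC, in capitals. They lie at chr9:57697529-57697593 (plus strand), chr3:65528247-65528311 (plus strand), chr13:74292332-74292468 (minus strand) and chr17:79715103-79715167 (minus strand), in the order printed.
Cyp1a1: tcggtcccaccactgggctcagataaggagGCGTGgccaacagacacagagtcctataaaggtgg
Tiparp: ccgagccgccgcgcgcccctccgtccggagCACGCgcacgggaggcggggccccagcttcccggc
Ahrr: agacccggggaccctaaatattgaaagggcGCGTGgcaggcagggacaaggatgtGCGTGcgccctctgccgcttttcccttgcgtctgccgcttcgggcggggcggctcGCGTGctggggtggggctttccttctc
Cyp1b1: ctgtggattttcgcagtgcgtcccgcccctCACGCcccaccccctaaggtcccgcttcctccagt

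The start used for *Cyp1a1* lies inside the gene model of the table, which begins further upstream. The genes whose log2 CPM followed each member most closely over the 8 libraries were taken from all tested protein-coding genes, so their correlations are the highest of many and are given as a description. For *Ahr* they were *Tmbim1* (r = 0.996), *Tlr3*, the endosomal receptor for double-stranded RNA (r = 0.993), and *Scimp*, an adaptor of antigen-presenting cells (r = 0.992). The points share the 2 fractions. After centring each fraction on its mean the same 3 genes had r of 0.955 to 0.977. These values come from the libraries the genes were picked on and are no separate check. *Tlr3* averaged 22.4 CPM in EpCAM+ and 0.269 CPM in EpCAM- cells, and *Scimp* averaged 7.20 and 0.101 CPM. For *Cyp1a1* they were *Pes1* (r = 0.998) and *Tbl3* (r = 0.997), both of ribosome assembly, and *Ccdc68* (r = 0.997), at 0.109 CPM in EpCAM+ and 4.95 CPM in EpCAM- cells. For *Arnt* they were *Skiv2l*, *Rfk* and *Rfng* (r = 0.924 to 0.940), and for *Tiparp* they were *Mfap1b*, *Ift22* and *Hist1h2bf* (r = 0.932 to 0.968). *Ahr* and *Cyp1a1* had r = -0.843 with each other over the 8 libraries and 0.154 after centring.

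Genes of or around the pathway, here called pathway genes, were described by 8 lists with 82 genes in all. They include family relatives of AHR and enzymes of like activity to TIPARP, which need not be AHR targets. Of the 82 genes, 57 passed the filter and 8 were at 0 in every library. By edgeR's quasi-likelihood test, adjusted over all 13560 genes by the Benjamini-Hochberg method, 21 of the 57 were higher and 13 lower in EpCAM+ cells (59.6% called, against 42.6% of all genes). Their median log2 fold change was 0.19, against 0.02 over all genes. The lists were chosen with earlier results of these data known, so a higher share than that of all genes may be built in and is no result about the pathway. With EpCAM+ replicates 2 and 3 alone the counts were 13 and 7, in a fit with fewer samples that called 3675 of all 14043 genes tested. *Cyp2s1* and *Kynu* passed the filter through their EpCAM+ counts alone and had to differ. They are therefore given as levels with no p, although the 21 genes include them. *Sult1a1* and *Ephx1* lay over the filter's cutoff in 2 and 3 of the EpCAM- libraries. Over the 53 genes above that cutoff in all 8 libraries, 17 were higher and 13 lower. The counts per list below stand beside shares of 21.8% higher and 20.8% lower over all genes. With 3 to 14 tested genes per list they are a description and were not tested as sets.

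The chaperones that hold the unliganded receptor were lower or did not pass the test. Of 6 tested genes 4 fell and none rose (median log2 fold change -0.27). *Hsp90aa1* had 1942 ± 268 CPM in EpCAM+ and 2725 ± 104 CPM in EpCAM- cells (log2 fold change -0.49, SE 0.11, adjusted p = 0.00541). *Ptges3*, the cochaperone p23, fell by 0.42 on the log2 scale (adjusted p = 0.00105) and *Cdc37* fell by 0.28, with a call lost in 2 of 16 alternatives. *Hsp90ab1* fell by 0.26, but its adjusted p of 0.0451 was lost in 12 of 16 alternatives.

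Among 13 relatives of the bHLH-PAS family 4 passed the filter, and *Clock*, a core factor of the circadian clock, rose (6.77 ± 0.884 against 3.01 ± 1.05 CPM, adjusted p = 0.00645). *Hif1a*, which shares ARNT with AHR, had 43.2 ± 3.61 against 35.9 ± 6.61 CPM (adjusted p = 0.128, or 0.0249 with the replicate block). *Epas1* had at most 6 counts in any library and *Arnt2*, the other ARNT, had 0 throughout.

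Of 9 genes of the xenobiotic battery 3 passed the filter and 3 had 0 counts in all libraries, among them *Cyp1a2*, the hepatic neighbour of *Cyp1a1*. *Cyp2s1*, an extrahepatic cytochrome inducible by AHR, had 0.132 ± 0.115 CPM in EpCAM- and 4.10 ± 2.37 CPM in EpCAM+ cells. Its fitted log2 fold change was 4.81, and 3.82 with EpCAM+ replicates 2 and 3 alone. *Nfe2l2*, which encodes the oxidative stress factor NRF2, fell (120 ± 7.31 against 179 ± 18.6 CPM, adjusted p = 0.000841). *Nqo1*, a quinone reductase under both factors, had 18.8 ± 2.51 against 27.7 ± 10.2 CPM (adjusted p = 0.0748, or 0.0389 with DESeq2).

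Coregulators and partners of AHR passed the filter in full, and 8 of 14 rose and 2 fell (median log2 fold change 0.41). *Relb*, the NF-kB subunit that can pair with AHR, rose from 3.68 ± 1.48 to 10.9 ± 2.56 CPM (log2 fold change 1.56, SE 0.28, adjusted p = 0.00172). *Nrip1* rose by 0.76 on the log2 scale (adjusted p = 0.000440), and the coactivators *Ncoa1* and *Crebbp* rose by 0.81 and 0.42. *Rb1*, the retinoblastoma protein that AHR can bind, fell by 0.59. *Ep300* had an adjusted p of 0.198.

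Of 15 genes for the uptake and breakdown of tryptophan, a source of AHR ligands, 9 passed the filter. Of these, 2 were lower and 1 higher (33.3% called, against 42.6% of all genes). The higher gene, *Kynu* (kynureninase), passed through its EpCAM+ counts alone and had to differ. It had 0.189 ± 0.133 CPM in EpCAM- and 2.53 ± 1.40 CPM in EpCAM+ cells. *Slc7a5*, a transporter that carries tryptophan and kynurenine, fell from 70.5 ± 23.4 to 37.8 ± 5.43 CPM (adjusted p = 0.00733). *Kyat1*, a kynurenine aminotransferase, fell by 0.52 on the log2 scale (adjusted p = 0.0227), a call lost in 4 of 16 alternatives.

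Enzymes that feed electrons to cytochromes or conjugate their products were split, with 4 of 10 higher and 3 lower. *Sult1a1*, a sulfotransferase, rose from 1.30 ± 1.38 to 24.9 ± 17.1 CPM (adjusted p = 0.00128). Its log2 fold change of 4.19 was 2.95 with EpCAM+ replicates 2 and 3 alone and 5.25 without EpCAM- replicate 1. *Ephx1*, microsomal epoxide hydrolase, rose from 1.09 ± 0.416 to 3.21 ± 0.651 CPM (adjusted p = 0.00378). *Por*, the reductase that CYP1A1 needs, rose by 0.28 on the log2 scale (adjusted p = 0.0255, lost in 6 of 16 alternatives), and *Cyb5a* by 0.39. *Nqo2*, *Gstp1* and *Cyb5b* fell by 0.69, 0.62 and 0.32. The calls of *Cyb5a* and *Cyb5b* were lost with EpCAM+ replicates 2 and 3 alone.

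Among targets of AHR in blood and immune cells 3 of 7 genes passed the filter and 2 rose. *Entpd1*, the ectonucleotidase CD39, rose from 5.34 ± 2.37 to 18.7 ± 7.80 CPM (adjusted p = 0.00283), and its log2 fold change of 1.80 was 1.22 with EpCAM+ replicates 2 and 3 alone. *Kit*, also a marker of the sort gate, rose by 0.45 on the log2 scale, with a call lost in 6 of 16 alternatives. Of the 8 genes for ADP-ribosylation, the activity of TIPARP, 4 rose and 1 fell. *Parp12* had 38.5 ± 8.07 against 16.7 ± 2.94 CPM (log2 fold change 1.20, SE 0.16, adjusted p = 0.000497), and *Parp9*, *Parp14* and *Parp11* rose by 0.50, 0.64 and 0.36. *Macrod1*, which removes ADP-ribose, fell by 0.32. The calls of *Parp11* and *Macrod1* were lost in 9 and 6 of 16 alternatives, and those of *Parp9* and *Parp14* with EpCAM+ replicates 2 and 3 alone.

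**Figure D4:**
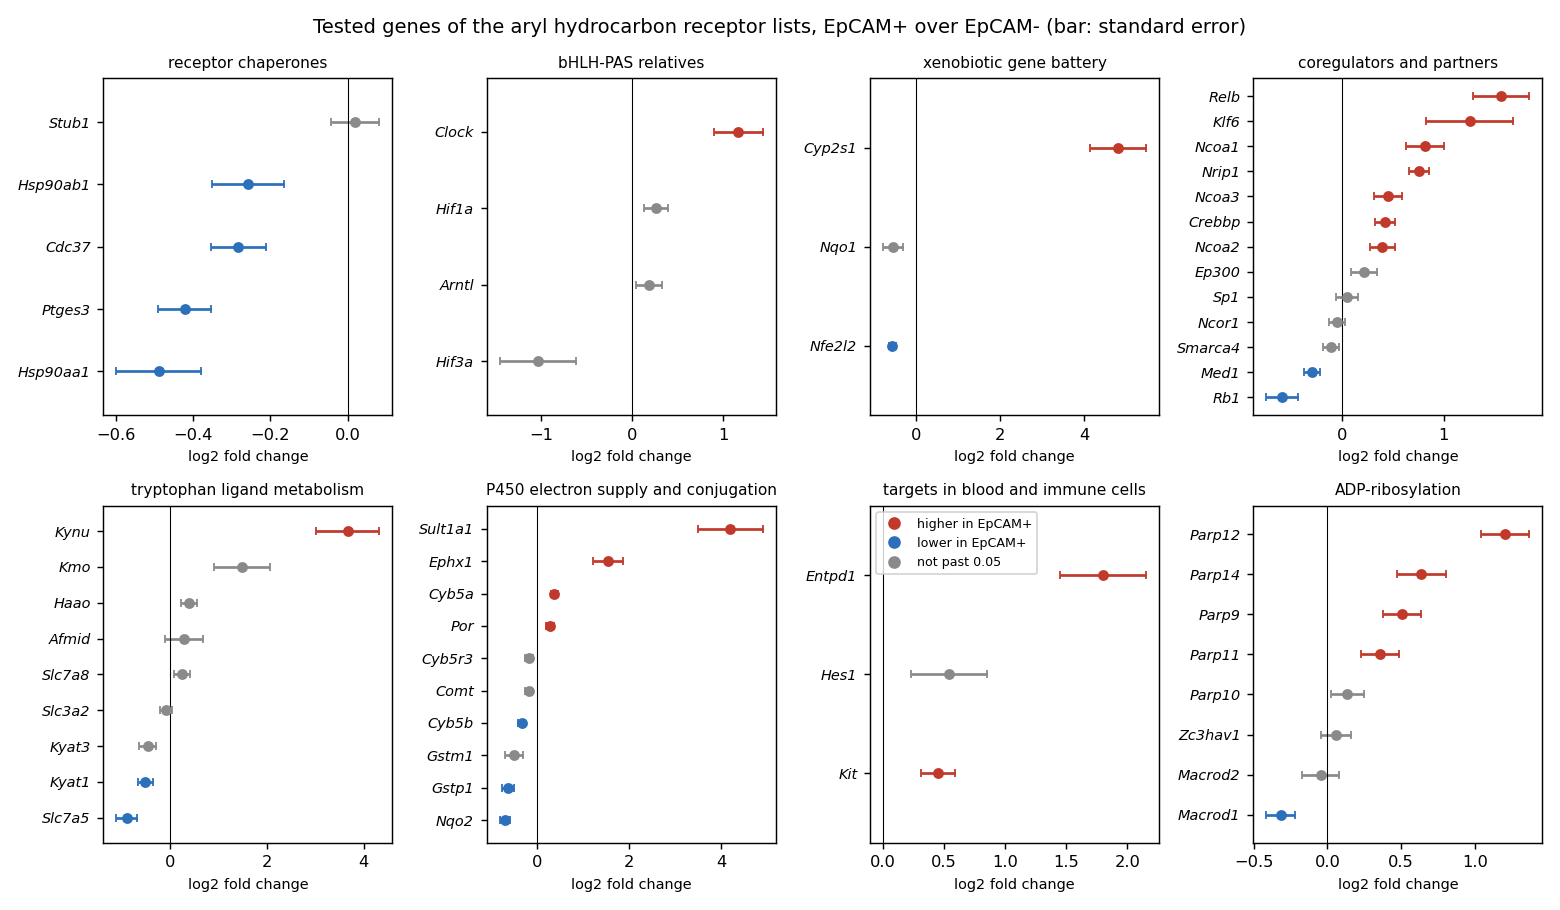
Fitted log2 fold change (EpCAM+ over EpCAM-) with its standard error for 55 tested genes of the 8 lists, 1 panel per list with its own horizontal scale, red for higher and blue for lower in EpCAM+ cells at an adjusted p under 0.05 (edgeR) and grey for the rest. *Cyp2s1* and *Kynu*, in red, passed the filter through their EpCAM+ counts alone and had to differ. Of the receptor chaperones drawn, *Hsp90aa1*, *Ptges3*, *Cdc37* and *Hsp90ab1* lie below 0 in blue, whereas *Relb* (1.56) lies highest of the coregulators.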

How the data were processed

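RNA-Seq was measured in 4 EpCAM+ and 4 EpCAM- Zeb1-/- LSK libraries (SMART-Seq v4, 150-bp paired ends). Per the labels, the authors aligned reads to GRCm38.p6 with STAR 2.6.1d and obtained read counts per gene with featureCounts 1.5.0-p3. The deposited counts are whole numbers without normalization, and the deposited FPKM values, made by the authors from counts and gene length, were used for the order of levels only, because the length column of the table is 2.51 times the length they imply (median over 9913 genes). Columns with fold changes and p-values that the authors computed with DESeq2 1.20.0 were left out. The coordinates of the table equal those of GENCODE M21 for 98.2% of genes.

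The members and the gene and marker lists were chosen with earlier results of these data known. Genes were kept by filterByExpr, scaled by TMM and tested with edgeR 4.0.16's quasi-likelihood test (two-sided, Benjamini-Hochberg threshold 0.05) in R 4.3.3 with limma 3.58.1. Log2 CPM used a prior count of 2. Standard errors came from the F statistic. The procedure was tested on simulated data. Depth was 14114491 to 17073546 counts per library. Where counts of a fraction were all 0, folds were bounds against 3 counts per library. Promoter windows came from RefSeq, and figures from Python 3.11.15 with matplotlib 3.10.9.

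Besides the 6 members, the genes named were the called genes of each list (at most 6 by adjusted p), 14 pathway genes fixed by name, and the 3 genes most alike to each member. The cell type markers were picked for mention with their values in view, and results of certain listed genes are not reported here. Same-numbered libraries deviated together from their fraction means (r across genes 0.205 to 0.356 in 4 pairs, against -0.216 to 0.0396 in 12 others). The numbers thus go with shared variation, and whether its source is 1 mouse or another shared step is not given. The main fit did not use this pairing, and the replicate block is an alternative. The p-values set each difference against the spread between these libraries, taken as unpaired. Alternatives were other scaling, other filters, DESeq2 1.42.0, the replicate block, each library left out and, added after seeing the data, EpCAM+ replicates 2 and 3 alone.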

Additional observations from a re-analysis of the deposited data

Results flagged for a closer look

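Of 79 groups of 4 libraries examined over the named genes, 5 had 1 library whose gap to the others passed Dixon's 95% critical value, and chance alone flags about 1 in 20 groups. *Cyp1a1* had 0.130 CPM in EpCAM+ replicate 4 and 0 in EpCAM+ replicates 1 to 3, which is 2 reads. *Cyp1b1* had 0.0567 CPM in EpCAM+ replicate 2 and 0 in the others, which is 1 read. *Tiparp* had 23.7 CPM in EpCAM+ replicate 4 against 21.6 to 21.8 in replicates 1 to 3. *Parp12* had 50.6 CPM in EpCAM+ replicate 1 against 33.7 to 35.1 in the others. *Macrod1* had 96.8 CPM in EpCAM- replicate 3 against 72.7 to 75.2 in the others.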

How the results depend on the processing

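Under 16 alternatives the *Ahr* log2 fold change ran from 0.99 to 1.54 and stayed above 0. It was 1.34 with the replicate block and 0.99 with EpCAM+ replicates 2 and 3 alone. With those 2 libraries, 13 pathway genes were called higher, 7 lower and 3675 genes in all, a fit with fewer samples. *Arnt* moved to 0.0154 with upper-quartile scaling. The fitted *Cyp1a1* value ran from -8.68 to -6.03 over the fits without 1 library and was -8.68 with EpCAM+ replicates 2 and 3 alone, where no EpCAM+ read remained, and it could not be fitted with 10 counts required in every library. The longer motif TNGCGTG was held by 1 of the 5 windows. Upper-quartile scaling and library totals put 63.6% and 62.7% of all calls higher in EpCAM+ cells, against 51.2% with TMM, and the median of all genes at 0.11 against 0.02. Leaving out 1 library gave 16 to 21 pathway genes higher and 11 to 16 lower, with 4662 to 6039 of all genes called. The replicate block gave 22 higher, 17 lower and 6818 of all genes, and changed the call of *Hif1a* and of no other named pathway gene. Depth limits *Ahrr* and *Cyp1b1*, which lay at or under 5 counts in every library.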
